A study of Mus musculus with 125 samples.

Results

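Tip-like brain endothelial cells are described here from single-cell RNA-seq of mouse brain vessels. They were chosen by the genes they express. A barcode had to hold at least 200 genes, at most 10% mitochondrial counts, at least 3 of Cdh5, Pecam1, Egfl7, Esam, Tie1 and Kdr, and no count of Tyrobp, Epcam or Pdgfrb. Among these endothelial cells, a cell was called tip-like when it held at least 2 of Apln, Esm1, Angpt2 and Pgf. The rule found 2486 tip-like cells among 13162 endothelial cells of the E12.5, E16.5 and P8 libraries, out of 42340 barcodes in the 5 libraries of the series. They were compared with the 5263 endothelial cells of the same 3 libraries that held none of the 4 markers.

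The study examined how endothelial cells take on organ-specific programmes, using bulk open-chromatin and nuclear RNA profiles of several organs and droplet libraries of brain. For the droplet libraries, cells were selected with beads against CD31, an endothelial surface protein. The E12.5 and E16.5 libraries came from whole embryonic brain digested with collagenase, whereas the P8 library came from cortex dissociated with a neural tissue kit, so brain region and digestion differ together with age. The labels name no mutant allele or treatment for these libraries and give neither strain nor number of animals. The E16.5 matrix came with no gene names, so its rows were read in the order of the gene tables of the other libraries, and its files carry a later age in their names than its label; every E16.5 value below rests on that order and label. The E12.5, E16.5 and P8 libraries held 95169465, 43662006 and 67287926 counts. There is 1 library per age, so none of the differences below has a replicate check, no p-value is given, and an age cannot be told apart from its library. Levels are counts summed over the cells of a group and scaled to the total count of that group (CPM). Intervals are 95% intervals that cover counting error only.

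Tip cells are the leading cells of a growing vessel sprout. VEGF-A from the surrounding tissue, acting through the receptor Kdr, raises the Notch ligand Dll4 in the tip cell, and Notch signalling restrains neighbouring stalk cells from the same fate. Apln encodes apelin, a secreted peptide. Esm1 encodes a secreted proteoglycan, Angpt2 a context-dependent antagonist of the receptor Tek, and Pgf a VEGF-family ligand. In brain, sprouts enter the neural tissue while the blood-brain barrier is being formed by Wnt signalling.

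The promoters of Apln, Esm1 and Kcne3 are shown because Apln with Esm1 alone was the most frequent marker pattern of tip-like cells at E12.5 and Kcne3, a potassium channel subunit, was among the genes with the widest difference outside the rule. Each is the 250 bases before the gene start in the RefSeq table of assembly GRCm38.p6, on chrX:48034854-48035103 (minus strand), chr13:113209409-113209658 (plus strand) and chr7:100176420-100176669 (plus strand). No Angpt2 promoter was used here. Capitals mark 2 motifs, searched on both strands: ACGTG, the core of a hypoxia response element that also lies within the E-box CACGTG, and TGANTCA, a loose form of the AP-1 site that allows any middle base.

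Apln: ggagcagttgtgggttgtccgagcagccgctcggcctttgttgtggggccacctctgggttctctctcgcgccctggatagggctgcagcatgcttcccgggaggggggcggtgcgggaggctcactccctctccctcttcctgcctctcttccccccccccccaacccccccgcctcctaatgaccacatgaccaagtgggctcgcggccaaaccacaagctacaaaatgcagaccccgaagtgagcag

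Esm1: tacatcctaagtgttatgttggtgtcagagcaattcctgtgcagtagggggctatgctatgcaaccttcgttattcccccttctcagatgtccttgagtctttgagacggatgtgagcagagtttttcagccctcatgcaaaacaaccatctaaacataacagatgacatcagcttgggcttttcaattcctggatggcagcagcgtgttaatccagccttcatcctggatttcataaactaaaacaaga

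Kcne3: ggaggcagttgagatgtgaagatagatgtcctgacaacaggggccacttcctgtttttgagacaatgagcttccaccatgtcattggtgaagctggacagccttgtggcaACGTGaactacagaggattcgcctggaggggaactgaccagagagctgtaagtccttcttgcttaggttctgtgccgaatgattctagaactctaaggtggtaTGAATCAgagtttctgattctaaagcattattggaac

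The Kcne3 window holds ACGTG at -140 and TGANTCA at -37 from the gene start, where the latter reads TGAATCA. Binding at either was not tested. Neither set of letters was found in the Apln and Esm1 windows, nor before a second Kcne3 start, on chr7:100178433-100178682. Among the 21263 promoters searched, 17.8% held ACGTG and 6.13% held TGANTCA in a window of the same length. The ETS letters CCGGAA (15.0% of promoters) and the TATA box letters TATAAA (11.6%) were searched too and were found in none of these windows.

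Tip-like cells made up 20.9% of endothelial cells at E12.5 (1106 of 5302, interval 19.8 to 21.98%), 14.7% at E16.5 (519 of 3542, interval 13.5 to 15.9%) and 19.9% at P8 (861 of 4318, interval 18.8 to 21.2%). In the libraries at both ends of the series they were scarcer, at 4.40% at E9.5 (228 of 5183) and 0.0702% in 2-month-old adult cortex (2 of 2850, interval 0.0085 to 0.253%). The 6 endothelial genes of the rule chose both groups, so their level describes the rule: they summed to 3327 CPM in tip-like cells and 3415 CPM in cells without markers at E12.5, 4009 and 4031 CPM at E16.5, and 3456 and 3510 CPM at P8. Cldn5, the tight junction gene of brain endothelium, was not in the rule and was picked after its values were seen. It was 1981 and 2693 CPM, 7828 and 8051 CPM, and 5378 and 5804 CPM in the same order. Background from free RNA was gauged in barcodes that held none of the 6 endothelial genes, though these may also be cells of other types. At least 2 markers were found in 4 of 554 such barcodes at E12.5, in 0 of 51 at E16.5 and in 0 of 130 at P8, at median depths of 6496.5, 5186 and 1247 counts against 10020.5, 8850.5 and 8029.5 in endothelial cells.

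Depth moved with the rule. Tip-like cells had a median of 13888 counts at E12.5, 10330 at E16.5 and 9524 at P8, against 7925, 7300.5 and 6560.5 in cells without markers. When every cell was thinned to 2000 counts, the tip-like share was 5.48% at E12.5, 4.37% at E16.5 and 7.60% at P8, so the order of the 3 ages differed from that of the unthinned shares. The depth of a library therefore enters the shares, and no change of the share with age is read from them. The lowest count in any barcode was 4070 at E12.5, 3678 at E16.5 and 500 at P8. The E12.5 and E16.5 libraries shared 50 barcodes, of which 1 was tip-like in both.

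**Figure D1:**
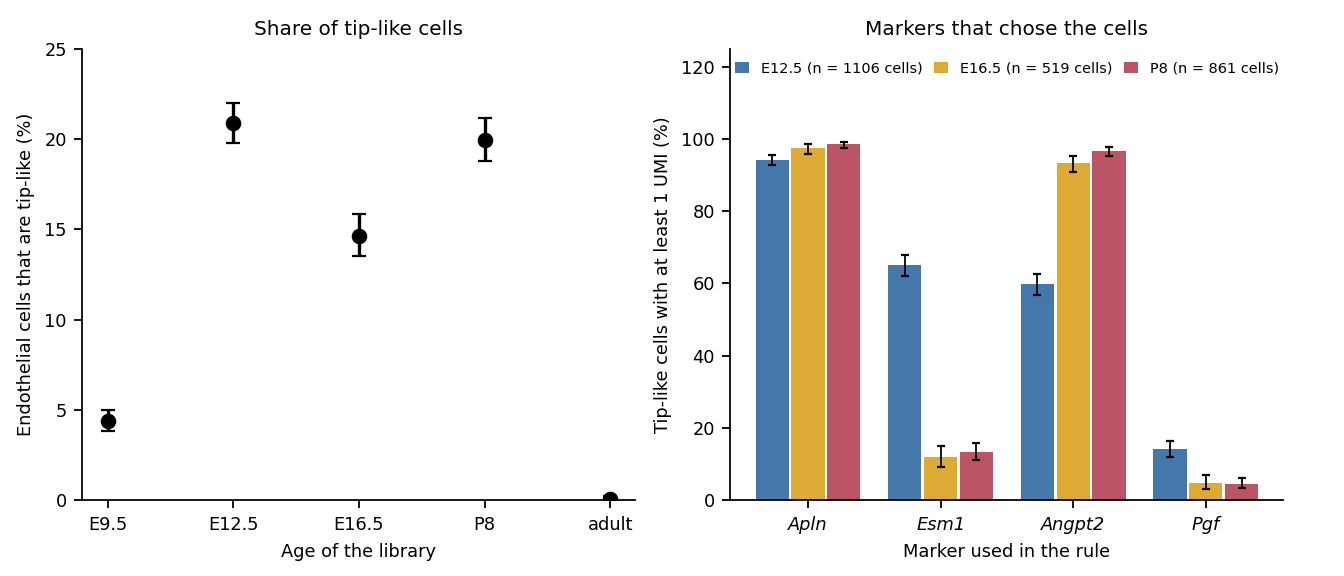
Left, percent of endothelial cells that were tip-like in each of 5 libraries, by age; right, percent of tip-like cells with at least 1 count of each marker in the E12.5, E16.5 and P8 libraries. Error bars are exact binomial 95% intervals; the share is 20.9, 14.7 and 19.9% at E12.5, E16.5 and P8, and Esm1 is found in 65.1% of tip-like cells at E12.5 against 11.9 and 13.4% later.

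The markers that chose the cells were combined differently at E12.5 and later. Apln was held by 94.2% of tip-like cells at E12.5, 97.5% at E16.5 and 98.5% at P8. Angpt2 was held by 59.8%, 93.3% and 96.6%, and Esm1 by 65.1%, 11.9% and 13.4%, in the same order. Pgf was the rarest marker, at 14.1%, 4.82% and 4.65%. In barcodes with none of the 6 endothelial genes Pgf was found in 2.89%, 3.92% and 3.85%, against 4.30%, 1.04% and 1.135% of all endothelial cells, where the first shares rest on 16 of 554, 2 of 51 and 5 of 130 barcodes, so at E16.5 and P8 its share among all endothelial cells was not above that background. The corresponding background shares were 4.51%, 3.92% and 6.15% for Apln, 3.43%, 1.96% and 6.92% for Angpt2 and 1.44%, 1.96% and 0% for Esm1, against 52.1%, 51.2% and 58.8%, 14.7%, 16.1% and 21.7%, and 17.7%, 3.08% and 3.22% of all endothelial cells. Apln with Angpt2 and nothing else was the pattern of 26.7% of tip-like cells at E12.5, 83.8% at E16.5 and 82.5% at P8, whereas Apln with Esm1 alone was the pattern of 31.4%, 4.62% and 2.67%. All 4 markers were found together in 21, 0 and 4 cells. At E9.5, 152 of 228 tip-like cells, 66.7%, held Apln with Esm1 alone. These values describe the rule and its threshold: cells just inside it, with exactly 2 markers, numbered 760, 480 and 752, and cells just outside, with 1 marker, numbered 2131, 1453 and 1829.

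Each marker was next measured in cells chosen by the other 3, that is, in cells with at least 2 of those 3 against cells with 0 of them. Angpt2 was 108 against 6.82 CPM at E12.5, 183 against 6.73 CPM at E16.5 and 280 against 9.62 CPM at P8, which is 15.9-fold, 27.2-fold and 29.1-fold higher. Apln was 3.49-fold, 3.78-fold and 6.43-fold higher, and Esm1 was 6.94-fold, 2.13-fold and 2.72-fold higher. Pgf was 1.31-fold higher at E12.5 (log2 ratio 0.39, interval 0.06 to 0.72), 3.50-fold at E16.5 and 7.09-fold at P8. Pgf was found in 2.76% and 3.86% of the chosen cells at E16.5 and P8, and in 0.759% and 0.550% of the cells with 0 of the other 3. Barcodes without endothelial genes held it in 3.92% and 3.85%, more often than those comparison cells. They thus give no clean measure of free RNA for Pgf, and what its folds reflect at those ages was not tested. Apln, Esm1 and Angpt2 were thus higher in cells chosen by the other markers at these ages, with a limit at E16.5. There Esm1 was 456 CPM in 41 tip-like cells with at least 3 counts of Plvap, described below. It was 5.34 CPM in the other tip-like cells, against 10.6 CPM in cells with 0 of the other 3 markers. The limit reaches Angpt2 and Apln, since 36 of the 62 tip-like cells with Esm1 at E16.5 were among those 41. Of the 73 cells behind the E16.5 Angpt2 fold, 24 held Apln with Esm1 alone and 25 held Apln, Esm1 and Angpt2. The 51 cells behind the E16.5 Apln fold included the same 25, and 10 with Esm1 and Angpt2 alone. None of these folds was tested without the cells rich in Plvap. At E9.5 the corresponding folds were 2.33 for Apln, 1.90 for Esm1 and 1.29 for Angpt2, and the interval of the log2 ratio reached below 0 for Angpt2 (-0.51 to 1.12) and for Pgf (-7.03 to 0.89).

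Outside the rule, tip-like cells of all 3 libraries held at least 2-fold more RNA of 86 genes and at least 2-fold less of 132 genes. These are 0.804% and 1.23% of the 10692 genes for which at least 10 counts were expected in the tip-like cells of every library. The expected count came from the level over all endothelial cells of a library. A gene low in tip-like cells could thus pass through the other cells, and the balance of higher and lower genes depends on this filter. With at least 30 counts expected, 63 genes were higher and 76 lower. Within single libraries the higher genes numbered 227 (1.85% of those measured) at E12.5, 306 (2.79%) at E16.5 and 380 (3.27%) at P8, and the lower genes 563 (4.59%), 572 (5.22%) and 550 (4.73%). The median log2 ratio over all genes was -0.02, -0.08 and -0.06, so the summed levels were closely centred. When cells without markers were weighted to the depth of the tip-like cells, 77 of the 86 higher genes and 128 of the 132 lower genes again passed 2-fold in all 3 libraries. Other settings moved the counts by more than 1.5 times. At 2000 counts per cell 23 genes were higher (0.578% of 3976 measured) and 26 lower (0.654%), of which 11 and 17 were among the 86 and the 132. Without Apln in the rule the counts were 27 (0.410% of 6580) and 26 (0.395%). Fewer genes passed the low-count filter under these 2 settings. Against comparison cells with at most 1 marker the counts were 38 (0.355% of 10692) and 68 (0.636%). Without the E12.5 library, 181 genes were higher (1.68% of 10767) and 253 lower (2.35%) in both others.

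Kcne3, the potassium channel subunit whose promoter is printed above, was 304 CPM in tip-like cells and 29.6 CPM in cells without markers at E12.5, 71.8 and 2.82 CPM at E16.5, and 16.7 and 2.35 CPM at P8. The log2 ratios were 3.36 (interval 3.24 to 3.48), 4.67 (4.21 to 5.16) and 2.83 (2.30 to 3.40), while the level in both groups was lower at each later age. Kcna5, a voltage-gated potassium channel, was 34.9 and 9.86 CPM, 61.5 and 13.4 CPM, and 25.6 and 2.84 CPM in the same order. Its log2 ratios were 1.82, 2.19 and 3.18. The potassium channel gene Kcng2 was 7.39 and 2.07 CPM, 19.2 and 1.81 CPM, and 28.7 and 3.04 CPM. The sodium channel gene Scn8a had log2 ratios of 2.32, 5.41 and 3.83. Channel genes were not a list of their own, and Kcnn4, a further potassium channel gene, was among the 15 leading lower genes, with -2.84, -4.31 and -3.58. The mechanosensitive channel Piezo2 was 69.2 and 25.6 CPM at E12.5, 33.7 and 9.33 CPM at E16.5, and 24.8 and 4.77 CPM at P8.

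Adm, also among the 86, encodes adrenomedullin, a vasoactive peptide that acts on endothelium through receptors with Ramp subunits. It was 95.9 CPM in tip-like cells and 10.7 CPM without markers at E12.5, 398 and 106 CPM at E16.5, and 55.7 and 9.41 CPM at P8. The log2 ratios were 3.16 (2.95 to 3.37), 1.91 (1.82 to 2.00) and 2.57 (2.30 to 2.85). Chst1, a carbohydrate sulfotransferase, was 105 and 17.9 CPM, 192 and 24.1 CPM, and 163 and 11.0 CPM. Its log2 ratios were 2.55, 2.996 and 3.89. Plaur, the urokinase receptor, had log2 ratios of 2.41, 1.70 and 1.41. Mcam, an adhesion molecule, had log2 ratios of 1.17, 2.06 and 2.68.

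Among the remaining leading genes, Slc16a6, a monocarboxylate transporter family member, was 11.5 and 2.12 CPM at E12.5, 53.1 and 10.3 CPM at E16.5, and 76.0 and 11.2 CPM at P8. Meox1, a homeobox transcription factor, was 16.5 and 4.88 CPM, 69.4 and 15.98 CPM, and 271 and 83.3 CPM. Sirpa, the receptor for CD47, had log2 ratios of 1.70, 3.08 and 2.65. Osgin1, an oxidative stress-induced gene, had log2 ratios of 1.77, 2.79 and 2.31. Smco2 was the gene whose smallest ratio was highest, with log2 ratios of 4.42, 3.67 and 3.53, but its level in tip-like cells was 12.7, 8.56 and 4.00 CPM.

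**Figure D2:**
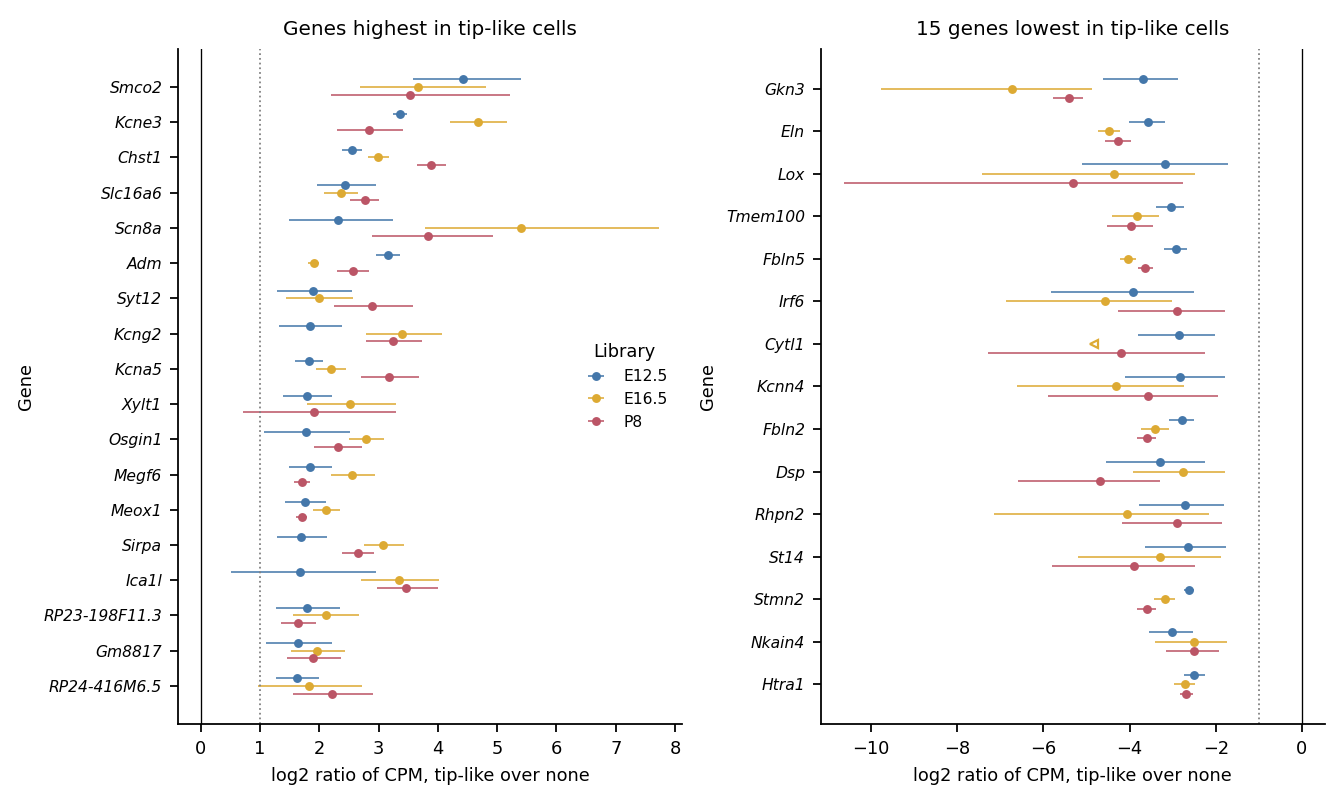
Log2 ratio of CPM, tip-like cells over endothelial cells without markers, for leading genes with the highest smallest ratio (left) and the 15 genes with the lowest largest ratio (right), with exact 95% counting intervals and a dotted line at 2-fold; the triangle marks a gene with 0 counts in tip-like cells, set to 3 counts. Each point lies beyond the dotted line in all 3 libraries, though the intervals of Xylt1, Ica1l and RP24-416M6.5 cross it in 1 library, for example Kcne3 at 3.36, 4.67 and 2.83 and Eln at -3.58, -4.48 and -4.26.

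The share of cells holding these transcripts was also taken after thinning to 2000 counts per cell. Thinning left out 2 tip-like cells and 74 cells without markers at P8 and none in the embryonic libraries. Kcne3, Chst1 and Adm were all among the 86 higher genes, and the groups were kept as chosen before thinning. A higher share in tip-like cells thus follows from that choice and is a description only. Kcne3 was found in 34.9% of tip-like cells and 4.94% of cells without markers at E12.5, in 8.29% and 0.191% at E16.5, and in 3.73% and 0.515% at P8. Without thinning the shares were 66.0% and 14.2%, 24.1% and 1.59%, and 12.2% and 1.29%. Chst1 was found in 20.2% and 3.73%, 32.6% and 4.33%, and 28.1% and 2.45% of thinned cells. Adm was found in 15.2% and 2.03%, 50.7% and 18.7%, and 10.9% and 1.99%. These transcripts were detected in a minority of thinned tip-like cells, except Adm at E16.5.

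Of 27 further genes known from tip cells and measured in all 3 libraries, 5 were at least 2-fold higher in each, namely Adm, Mcam, Plaur, Chst1 and Piezo2, and 0 were lower, where 0.804% and 1.23% of all genes passed. Those shares are the background for each count in all 3 libraries given below. A count of 0 or 1 gene is too small to set a list apart from them. The median log2 ratio of the list was 0.46, 0.91 and 0.70. Within single libraries 5, 12 and 10 of 27 were higher and 0, 0 and 2 lower. Over all genes 1.85%, 2.79% and 3.27% were higher, and 4.59%, 5.22% and 4.73% lower. This list, like the others, was drawn up with earlier results of these data known, so its counts are a description and no independent check. The following 4 better-known tip genes were picked after their values were seen. Dll4, the Notch ligand of tip cells, was 83.2 CPM in tip-like cells and 68.2 CPM without markers at E12.5, 152 and 114 CPM at E16.5, and 123 and 86.3 CPM at P8. Cxcr4, a chemokine receptor, had log2 ratios of 0.40, 0.89 and 0.70, and Pdgfb, the ligand that recruits pericytes, had 0.46, 0.78 and 0.53. Unc5b, a netrin receptor, had -0.42, -0.23 and -1.65, and its P8 ratio was 0.50 when Apln was left out of the rule, so its direction turned with that marker. The comparison cells also hold arterial cells, in which Dll4, Cxcr4 and Unc5b are known to be expressed, and the part of those cells in these ratios was not tested.

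The VEGF and angiopoietin receptors were measured beside the ligands used in the rule. Flt4, the receptor for VEGF-C, had log2 ratios of 0.89, 0.89 and 0.56, and Nrp1, a VEGF co-receptor, had 0.07, 0.91 and 0.76. Vegfc itself was lower, at 14.4 and 41.5 CPM, 15.8 and 106 CPM, and 8.73 and 93.1 CPM. Of 7 VEGF ligands and receptors measured, Vegfc was the 1 that passed 2-fold in all 3 libraries. Tek, the receptor of Angpt2, was 79.8 and 126 CPM at E12.5, 109 and 190 CPM at E16.5, and 126 and 283 CPM at P8, with log2 ratios of -0.66, -0.80 and -1.17. Aplnr, the apelin receptor, was 435 and 499 CPM, 310 and 365 CPM, and 222 and 222 CPM, picked after its values were seen. Of Tek and Aplnr, Tek was thus lower in tip-like cells of each library, by at least 2-fold at P8 alone.

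Arterial genes had the lowest medians of the 17 lists of endothelial and cell cycle genes plotted by list; among the lists of other cell types, choroid plexus and ependymal genes had lower medians at E12.5 (-1.81) and E16.5 (-2.96). Of 16 measured, 8 were at least 2-fold lower in all 3 libraries (1.23% of all genes), 0 were higher (0.804% of all genes), and the median log2 ratio was -1.62 at E12.5, -2.09 at E16.5 and -2.67 at P8. The 8 genes were Gja4, Gja5, Gkn3, Bmx, Stmn2, Mgp, Alpl and Vegfc. The gap junction gene Gja4 was 245 CPM in tip-like cells and 810 CPM without markers at E12.5, 109 and 513 CPM at E16.5, and 81.6 and 456 CPM at P8. Gja5, a further connexin of arteries, was 17.7 and 70.8 CPM, 7.29 and 63.3 CPM, and 0.818 and 17.6 CPM. Gkn3, a marker of brain arterioles, was 0.763 and 9.76 CPM, 0.317 and 33.6 CPM, and 6.46 and 274 CPM, with log2 ratios of -3.68, -6.73 and -5.41. Bmx, a kinase of arterial endothelium, had log2 ratios of -2.17, -4.96 and -4.17.

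Of 33 basement membrane and matrix genes, 4 passed 2-fold in all 3 libraries, each of them lower in tip-like cells, where 1.23% of all genes were lower. Eln, which encodes elastin, was 3.17 CPM in tip-like cells and 37.9 CPM without markers at E12.5, 20.9 and 465 CPM at E16.5, and 8.46 and 162 CPM at P8. Fbln5, which helps assemble elastic fibres, was 7.45 and 56.5 CPM, 35.8 and 585 CPM, and 24.5 and 303 CPM. Fbln2 had log2 ratios of -2.79, -3.40 and -3.60, and the crosslinking enzyme gene Lox had -3.17, -4.36 and -5.31 at no more than 0.317 CPM in tip-like cells. The median of that list was 0.14, 0.26 and 0.05. Tmem100, a BMP9-induced endothelial gene, was lower as well, at -3.05, -3.84 and -3.97.

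The lower genes were also counted as a share of cells. The 7 genes used, Gja5, Bmx, Gkn3, Stmn2, Mgp, Fbln5 and Eln, were all among the 132 lower genes. A lower share in tip-like cells thus follows from that choice and is a description only. After thinning to 2000 counts, at least 2 of these 7 genes were found in 1.08% of tip-like cells and 6.20% of cells without markers at E12.5, in 0.385% and 14.01% at E16.5, and in 0.466% and 12.8% at P8. In cells with exactly 1 marker the shares were 1.45%, 2.89% and 1.93%, nearer to the tip-like cells. Without thinning, the tip-like shares were 5.24%, 5.01% and 5.57% and those without markers 12.1%, 22.4% and 19.2%. When cells with any count of Gkn3, Bmx, Mgp, Gja5, Eln or Vcam1 were left out of both groups, an alternative chosen after seeing the data, 78 genes were higher and 47 lower in all 3 libraries. Of the 86 higher genes 83 could still be measured, and 70 were among the 78. Of the 132 lower genes 75 could still be measured, of which 71 kept their sign in every library and 42 were among the 47. Fbln5 at E12.5 then had a log2 ratio of 0.55 in place of -2.92, so its difference at that age rested on cells holding those 6 genes.

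**Figure D3:**
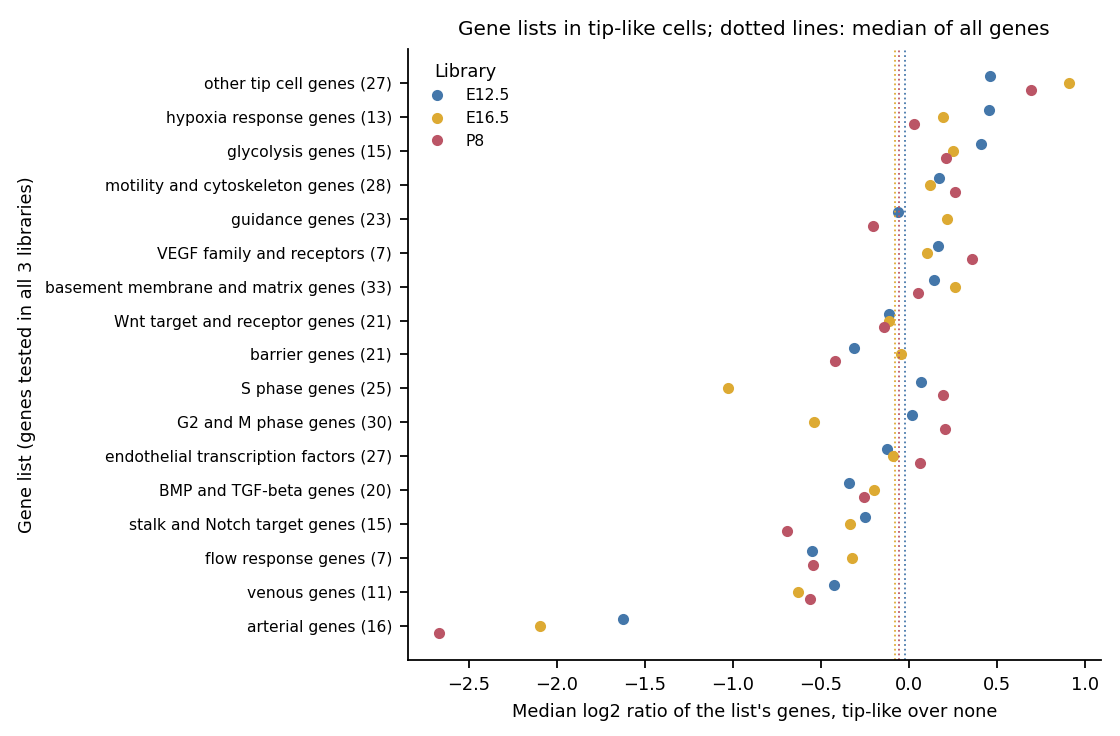
Median log2 ratio of each of 17 lists of endothelial and cell cycle genes, tip-like over endothelial cells without markers, in the E12.5, E16.5 and P8 libraries; numbers in brackets are genes measured in all 3, and dotted lines are the medians of all genes (-0.02, -0.08 and -0.06). Of the lists plotted, which leave out genes of other cell types, arterial genes lie lowest, at -1.62, -2.09 and -2.67, and further tip cell genes lie at 0.46, 0.91 and 0.70.

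Genes of stalk cells, veins and blood flow differed less by median than arterial genes. Within single libraries, 5 of 18, 4 of 16 and 6 of 16 stalk and Notch target genes were at least 2-fold lower, and 0 were higher. Of venous genes, 2 of 11, 5 of 11 and 2 of 13 were lower, and 1, 0 and 0 higher. Of 7 flow response genes, 2, 0 and 2 were lower, and 0 higher. Over all genes 4.59%, 5.22% and 4.73% were lower, and 1.85%, 2.79% and 3.27% higher. Of 15 stalk and Notch target genes, Smad6, an inhibitor of BMP signalling, was at least 2-fold lower in all 3 libraries, at 6.81 and 26.96 CPM, 19.5 and 60.6 CPM, and 5.00 and 17.7 CPM. With at least 3 markers required, the log2 ratio of Smad6 at E16.5 was 0.041, and without Apln in the rule it was 0.57, so its direction there turned with the rule. Id1, a BMP target, had log2 ratios of -1.09, -0.61 and -1.40. Of 11 venous genes, Vcam1, a leukocyte adhesion molecule, passed in all 3 libraries, with -1.77, -3.48 and -3.48. The flow-induced factor Klf2 was 430 and 820 CPM, 1250.3 and 1945 CPM, and 734 and 1529.9 CPM, and Klf4 had log2 ratios of -1.19, -0.62 and -1.34. None of 7 flow response genes passed 2-fold in all 3 libraries, and their median was -0.55, -0.32 and -0.55. Immediate early genes, which dissociation of tissue is known to induce, had medians of 0.16, 0.03 and -0.67 and summed to 1383 and 1259.8 CPM, 5948 and 5799.9 CPM, and 4328 and 6367 CPM, and their part in the flow gene values was not tested.

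Among 20 BMP and TGF-beta genes measured, Smad6 and Ltbp4, which binds latent TGF-beta, were at least 2-fold lower in all 3 libraries. Ltbp4 was 7.45 and 36.7 CPM at E12.5, 12.7 and 101 CPM at E16.5, and 87.5 and 305 CPM at P8. Of 27 endothelial transcription factors, 1 passed 2-fold in all 3 libraries, Gata2, with log2 ratios of -1.26, -1.04 and -1.24. That count is too small to set apart from the share of all genes. Within single libraries 3 of 34, 3 of 29 and 4 of 28 of these factors were at least 2-fold lower, and 1, 0 and 2 higher. Over all genes 4.59%, 5.22% and 4.73% were lower, and 1.85%, 2.79% and 3.27% higher.

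Barrier genes lay somewhat below the comparison cells by median at E12.5 and P8 and close to them at E16.5. Of 21 measured, 1 passed 2-fold in all 3 libraries, the taurine transporter Slc6a6, at 120 and 314 CPM, 354 and 768 CPM, and 331 and 1384 CPM. The median log2 ratio of the list was -0.31, -0.04 and -0.42. Its summed level was 8102 CPM in tip-like cells and 10842 CPM without markers at E12.5, 32908 and 34861 CPM at E16.5, and 26406 and 35125 CPM at P8. Within single libraries 3 of 21, 2 of 22 and 2 of 22 were at least 2-fold lower, and 0 were higher. Over all genes 4.59%, 5.22% and 4.73% were lower, and 1.85%, 2.79% and 3.27% higher. Mfsd2a, a lipid transporter of the barrier, was found in 18.7% of thinned tip-like cells and 15.3% of cells without markers at E12.5, in 61.5% and 47.3% at E16.5, and in 71.8% and 76.3% at P8. Of 21 Wnt targets and receptors, 0 passed in all 3 libraries, with medians of -0.11, -0.11 and -0.14. Barrier and Wnt genes were thus measured in tip-like cells at the same order of level as in other brain endothelium.

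The median log2 ratio was 0.17, 0.12 and 0.26 for motility and cytoskeleton genes and 0.41, 0.25 and 0.21 for glycolysis genes. Of 28 motility and cytoskeleton genes, Plaur passed 2-fold in all 3 libraries and 0 were lower in all 3. The GTPase Rhoj, which acts in endothelial migration, had log2 ratios of 0.94, 1.20 and 1.17, and Fscn1, which bundles actin in filopodia, had 0.67, 0.95 and 1.47. Of 15 glycolysis genes, Pfkfb3, which makes the activator of phosphofructokinase, was 18.5 and 7.24 CPM, 14.1 and 5.04 CPM, and 20.0 and 6.02 CPM. Pfkp, the platelet-type phosphofructokinase, had log2 ratios of 1.25, 1.03 and 1.46, and both passed in all 3 libraries. Of 13 hypoxia response genes, Adm passed in all 3, while Ankrd37 had 1.45, 0.60 and 0.81 and Ddit4 was lower at -1.35, -0.89 and -1.75. Hypoxia genes therefore differed in both directions. Of 23 guidance genes, 0 passed in all 3 libraries. Among them the semaphorin Sema3g, which is also an arterial gene, had -0.92, -1.95 and -2.85 and the receptor Epha2 had 0.66, 1.41 and 1.41.

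S phase genes were lower in tip-like cells at E16.5. Of 25 S phase genes, 0, 13 and 0 were at least 2-fold lower at E12.5, E16.5 and P8, where 4.59%, 5.22% and 4.73% of all genes were lower, with medians of 0.07, -1.02 and 0.20. Of 30 genes of G2 and M phase, 0, 3 and 0 were lower, near those shares, with medians of 0.02, -0.54 and 0.20. After thinning, at least 1 of Mki67, Top2a, Cdk1, Ccnb1 and Ccnb2 was found in 52.0% of tip-like cells and 47.5% of cells without markers at E12.5, in 20.6% and 20.2% at E16.5, and in 13.2% and 10.3% at P8. The difference of the S phase median between ages was not tested.

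The leading genes were also followed over the number of markers per cell. Median log2 ratios of the 86 higher genes over cells without markers were 0.52, 1.11 and 1.88 for cells with 1, 2 and at least 3 markers at E12.5, then 0.90, 1.81 and 2.07 at E16.5, and 0.92, 1.75 and 2.03 at P8. Levels were higher at every step for 74, 49 and 67 of the 86 genes. For the 132 lower genes the medians were -1.24, -1.63 and -1.88 at E12.5, -1.43, -2.30 and -1.10 at E16.5, and -1.65, -2.08 and -1.93 at P8. The lower genes were thus mostly reduced already in cells with 1 marker. Chst1 at P8 was 11.0, 46.7, 154 and 228 CPM in cells with 0, 1, 2 and at least 3 markers, whereas Gja4 was 456, 74.2, 78.2 and 107 CPM. The genes were chosen on the cells with 0 and with at least 2 markers, so the step from 1 to the others is a description.

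**Figure D4:**
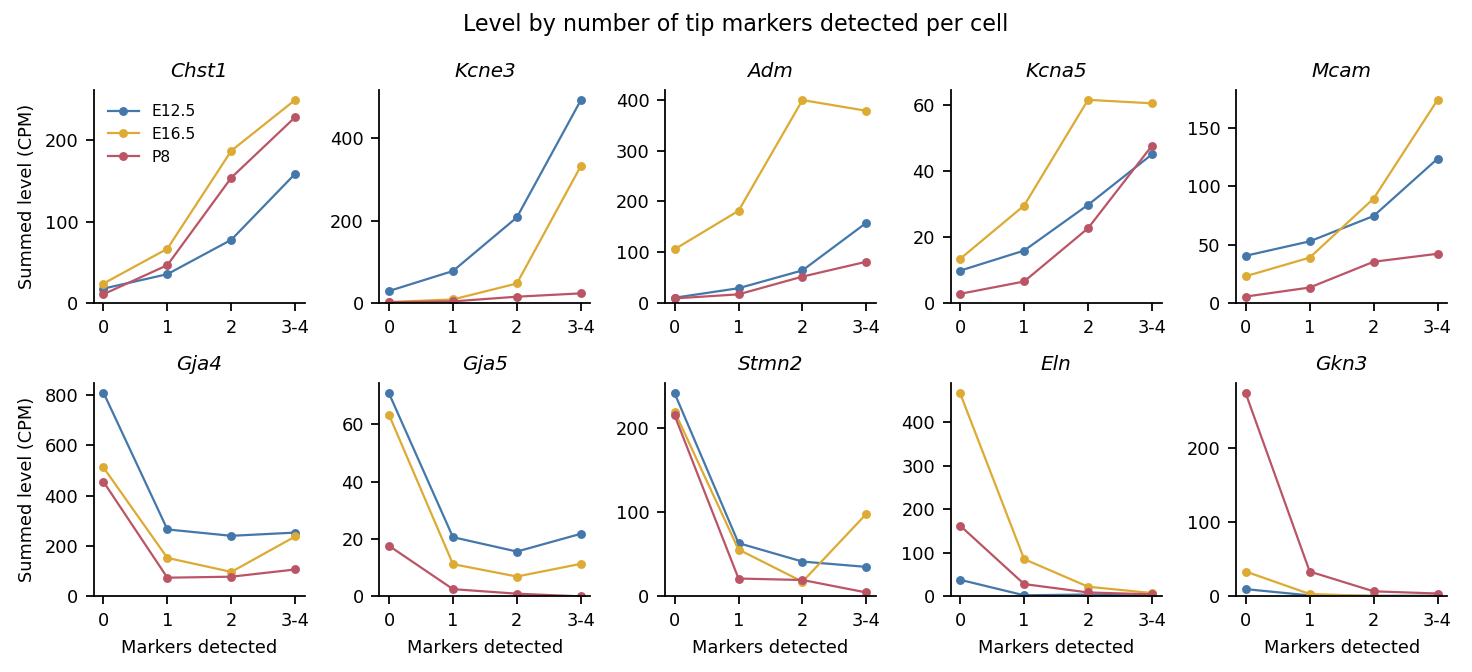
Summed level in CPM (linear axes from 0) of 10 genes in endothelial cells with 0, 1, 2 and 3 to 4 of the tip markers, in the E12.5, E16.5 and P8 libraries. Chst1 at P8 goes from 11.0 to 46.7, 154 and 228 CPM, and Gja4 at P8 from 456 to 74.2, 78.2 and 107 CPM; the last group holds 39 cells at E16.5.

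The E9.5 library was not used to choose the genes. Of the 86 higher genes 42 could be measured there, 11 of them at least 2-fold higher in tip-like cells, where 0.611% of 8843 genes passed, and 40 had a ratio above 0. Of the 132 lower genes 45 could be measured, 7 of them at least 2-fold lower, where 1.01% passed, and 39 had a ratio below 0. Kcne3 was 117 CPM in the tip-like cells and 33.6 CPM in cells without markers at E9.5, and Adm was 36.1 and 6.88 CPM. Gkn3 had 0 counts in both groups there, so the arteriole marker gives no ratio at that age.

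The likeness of other genes to the markers is a description of the rule, since the markers are at 0 by construction in the columns without markers. The 10 genes whose log2(CPM + 1) followed the mean of the 4 markers most closely over the 6 columns of levels (3 libraries, with and without markers) were C1qtnf1, Zswim4, Plekhh1, Mkks, Gnai1, Asap3, Dcbld1, Polg, Rhoj and Rhod. Pearson's r lay between 0.965 and 0.997, over columns that share libraries and depth. Rhod, a GTPase of endosome motility, was 53.2 and 20.2 CPM at E12.5, 75.4 and 18.7 CPM at E16.5, and 74.6 and 23.9 CPM at P8. Zswim4, Mkks, Asap3 and Polg had log2 ratios of at most 0.83.

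Tip-like cells were not alike within a library. At E12.5, 388 cells held Esm1 without Angpt2 and 329 held Angpt2 without Esm1, at median depths of 13265.5 and 13788 counts. Of 10601 genes, 149 (1.41%) were at least 2-fold higher and 225 (2.12%) at least 2-fold lower in the cells with Esm1. The arterial connexin Gja5 was 34.2 CPM in the cells with Esm1 and 2.18 CPM in the cells with Angpt2. Dkk2, a Wnt modulator, was 18.0 and 1.19 CPM, the homeobox gene Msx1 was 13.2 and 1.19 CPM, and Bmx was 6.27 and 0.794 CPM. These 4 genes were picked from the widest differences, after their values were seen, and the arterial list was not counted in this comparison. Lymphatic genes lay on the other side: Pdpn was 0.847 and 20.3 CPM, Lyve1 was 1.36 and 17.7 CPM, Prox1 was 2.71 and 25.0 CPM, and the chemokine gene Ccl21a was 29.8 and 434 CPM. The cells with Angpt2 held 102, 89, 126 and 2186 counts of these genes. All tip-like cells outside the 34 described next held 5, 17, 17 and 197. The lymphatic levels thus rest mostly on those 34 cells, which these genes helped to choose, and not on the cells with Angpt2 at large.

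At E12.5, 34 of 1106 tip-like cells (3.07%) held at least 3 of Prox1, Lyve1, Pdpn, Ccl21a and Mmrn1, against 25 cells without markers (1.21%). At E16.5 there were 1 tip-like cell (0.193%) and 11 cells without markers (0.701%), the other way round, and at P8 2 (0.232%) and 1 (0.0614%). The group was chosen after the values were seen, by these 5 genes, and is a description only. Mmrn1 was not confined to it, with 200 counts in the 34 cells and 1114 in the other tip-like cells. Of the 34 cells, 28 held Angpt2, 24 Pgf, 18 Apln and 7 Esm1, at a median depth of 18877.5 counts against 13680 in the other tip-like cells. Prox1, the master regulator of lymphatic identity, was 239 CPM in them and 1.04 CPM in the other tip-like cells, and Pgf was 126 and 14.5 CPM. Kcne3 was 52.6 and 313 CPM. Of 20 barrier genes 13 were at least 2-fold lower, where 7.91% of 6369 genes passed, and Mfsd2a was 6.37 and 124 CPM.

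At E16.5 and P8 a further small group held at least 3 counts of Plvap, the protein of fenestral diaphragms that brain endothelium loses as the barrier forms. They were 41 of 519 tip-like cells at E16.5 (7.90%) and 11 of 861 at P8 (1.28%), against 73 (4.65%) and 10 (0.614%) of the cells without markers. The 2 groups were unlike in level at E16.5, since 34 of the 41 tip-like cells but 9 of the 73 cells without markers held at least 14 counts. Esm1 was held by 36 of the 41 cells and 10 of the 11, Apln by 31 and 6, and Angpt2 by 24 and 8. At E16.5 Esm1 was 456 CPM in these cells and 5.34 CPM in the other tip-like cells, and at P8 it was 819 and 18.0 CPM. This group, too, was chosen after the values were seen.

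Barrier genes were low in the Plvap-rich tip-like cells. At E16.5, 17 of 21 barrier genes were at least 2-fold lower than in the other tip-like cells, where 8.85% of 5775 genes passed, with a median log2 ratio of -2.28 against -0.04 over all genes. At P8, 20 of 22 were lower, where 15.2% of 1762 genes passed, with a median of -4.38 against -0.15. The tight junction gene Cldn5 was 2018 CPM against 8340 CPM in the other tip-like cells at E16.5, and 154 against 5428 CPM at P8. The transporter Slco1c1 was 174 against 1095 CPM, and 9.63 against 1506 CPM. Gpihbp1, which anchors lipoprotein lipase on capillaries outside the brain parenchyma, was 1082 against 33.1 CPM, and 2436 against 12.1 CPM. Kcne3 was 315 against 50.3 CPM, and 96.3 against 15.97 CPM. Without these cells and the cells with lymphatic genes, an alternative chosen after seeing the data, 80 of the 86 higher and 124 of the 132 lower genes passed again. Over all cells Plvap was 224 CPM in tip-like cells and 57.7 CPM without markers at E16.5, and the 41 cells, which Plvap itself chose, held 1338 Plvap counts against 77 in the other tip-like cells. Without Esm1 in the rule the log2 ratio of Plvap was -0.14 at E16.5 and -2.74 at P8, so its direction turned with that marker.

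**Figure D5:**
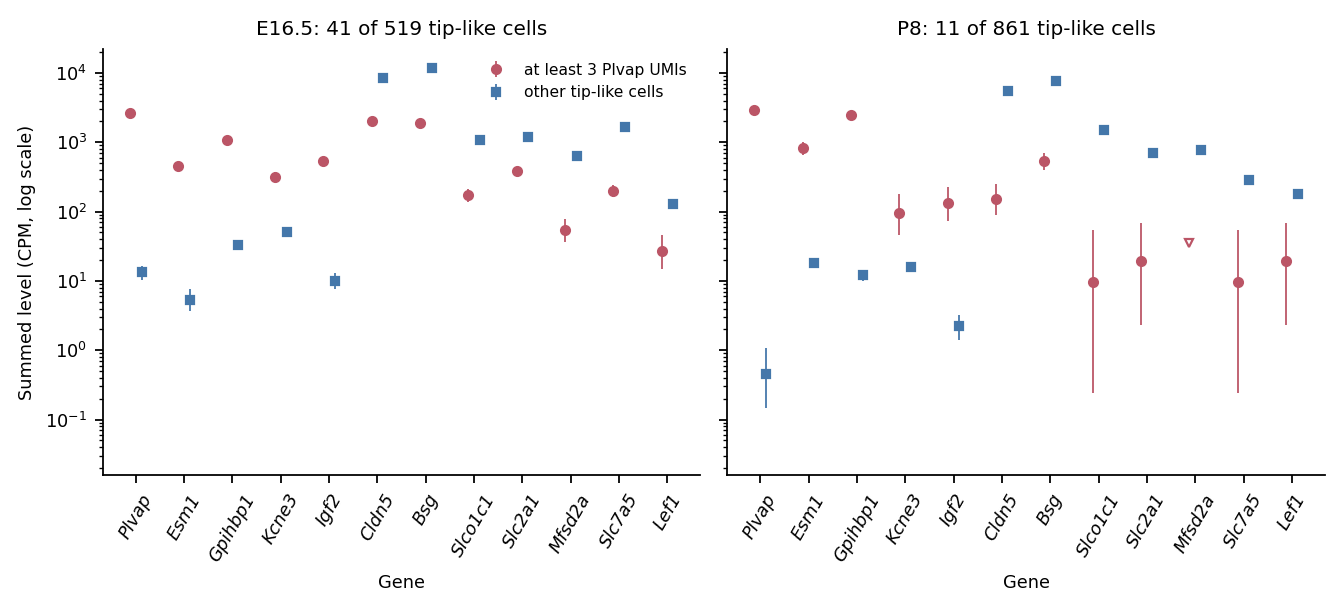
Summed level in CPM (log axis) of 12 genes in tip-like cells with at least 3 Plvap counts and in the other tip-like cells, at E16.5 (41 of 519 cells) and P8 (11 of 861 cells), with exact Poisson 95% intervals; the open triangle marks the upper limit for a gene with 0 counts. Plvap, Esm1, Gpihbp1, Kcne3 and Igf2 lie higher in the Plvap-rich cells, and the 7 barrier and Wnt genes, such as Cldn5 at 2018 against 8340 CPM, lie lower.

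Transcripts of other cell types moved with the groups as well. When cells with a count of any of 7 genes of other cell types were also left out, 36 of 1106, 72 of 519 and 7 of 861 tip-like cells remained. Most tip-like cells thus held such a count. Under that setting 775 genes could be measured in all 3 libraries. They held none of the 86 higher genes and 4 of the 132 lower genes, of which 3 passed again, so the part of those transcripts in the other genes was not tested. The summed level of 10 erythroid genes was 10710.0 CPM in tip-like cells and 23103 CPM without markers at E12.5, 17908 and 8457 CPM at E16.5, and 22771 and 16368 CPM at P8, with none of the 10 at 0 in tip-like cells. The 12 macrophage genes summed to 77.3 and 363 CPM, 20.1 and 16.5 CPM, and 17.4 and 20.4 CPM, led at E12.5 by Pf4 at 38.8 and 318 CPM. The 12 pericyte genes summed to 34.3 and 46.8 CPM, 64.3 and 24.2 CPM, and 104 and 97.3 CPM, and the 7 choroid plexus and ependymal genes to 28.0 and 96.9 CPM, 59.4 and 445 CPM, and 38.4 and 43.6 CPM. The 16 neural genes, Stmn2 among them, summed to 189 and 365 CPM, 176 and 342 CPM, and 434 and 559 CPM, with 2, 2 and 4 genes at 0 in tip-like cells. Stmn2, counted above as an arterial gene, was 242, 220 and 216 CPM without markers and 41.4, 17.5 and 19.5 CPM in cells with exactly 2 markers. Its difference was larger than that of the neural sums at each age, so their direction rests on Stmn2. The 14 glial genes summed to 228 and 178 CPM, 189 and 169 CPM, and 123 and 147 CPM, and the 11 fibroblast genes to 278 and 354 CPM, 55.9 and 91.2 CPM, and 6.55 and 20.0 CPM.

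Bulk ATAC-seq of brain endothelial nuclei, not of tip-like cells, was read at the starts of the markers and leading genes. Per the labels, tamoxifen switched on a GFP reporter in the vessels of these mice before collection, at ages labelled E12, P6 and adult, while the protocol places the P6 collection a day later. The authors called peaks in each library separately. A peak lay within 500 bp of the Esm1 start in 3 of 3 E12, 2 of 3 P6 and 0 of 2 adult libraries, with a pileup, the authors' own value, of 37.8, 46.3 and 37.7 at E12 and 9.38 and 8.75 at P6. At the Apln start the counts were 3, 2 and 1, and at Pgf 3, 2 and 1. Kcne3 had a peak in 3, 3 and 1 libraries, Kcna5 in 3, 3 and 0, and Adm in 3, 2 and 2. Of the 9 leading higher genes with a start in the table, Osgin1 was the 1 with a peak in all 8 libraries, and of the 8 leading lower genes with a start in the table Fbln5, Rhpn2 and Htra1 had one in all 8, where 50.0% of 17492 genes did. Whole-tissue nuclei had a peak at Esm1 in 1 of 1 E12, 1 of 3 P6 and 0 of 1 adult libraries, at Apln and at Kcna5 in 1, 3 and 1, and at Pgf, Kcne3 and Adm in 1, 2 and 1.

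The number of peaks called moved with age, from 101322 to 111142 per library at E12, through 27160, 87133 and 79903 at P6, to 38465 and 45094 in adults. Sequencing depth moved with age as well, at 31831670 to 42346647 tags after removal of duplicates at E12, 19083443 to 20153603 at P6, and 17944260 and 23918730 in adults. When the 27160 strongest peaks of each library were taken, Esm1 had a peak in 3, 0 and 0 libraries, Kcne3 in 3, 2 and 0, Osgin1 in 0, 3 and 2, Htra1 in 0, 2 and 2, Apln in 0 of 8 and Pgf in 1 of 8. Within 5 kb of the Esm1 start a peak lay in all 8 libraries, the adult ones included. No change of the peaks with age is read from these counts.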

How the data were processed

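Droplet libraries were read from the authors' deposited matrices of raw counts (unique molecules per gene and barcode). Cell Ranger, Seurat 4.0.4 and the mm10 build are named in the submitters' processing notes, and the file headers give version 4.0.0 for the E9.5, P8 and adult libraries. Counts were summed over cells with Python 3.11.15, numpy 2.4.6 and scipy 1.17.1. A difference of at least 2-fold was called, among genes with at least 10 counts expected in tip-like cells. The expected count was taken from the level over all endothelial cells of the library. Intervals are exact (Poisson, Clopper-Pearson or conditional binomial) at 95%. A count of 0 was set to 3 counts over the group for a ratio. The sums and ratios were tested on simulated data with 200 changed genes.

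The members and gene lists were chosen with earlier results of these data known. Genes were named by rule: the 20 with the highest smallest log2 ratio over the 3 libraries, the 15 with the lowest largest ratio, up to 4 per list and each list gene past 2-fold in all 3, 6 that changed direction with age, and the 10 most like the markers. Genes outside it are named as picked after their values were seen, which also holds for the genes given for the cells with lymphatic genes, the Plvap-rich cells and the cells with Esm1 or Angpt2. Some genes that met the rule are not reported here. Doublets were scored with scrublet in scanpy 1.11.5, which marked 1, 3 and 0 barcodes, so the caller did not work and no cell was removed.

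ATAC-seq peaks were called by the authors in each library with MACS2 2.1.2, per the file headers, after Bowtie2, SAMtools 1.13 and Picard, per the submitters' processing notes. The deposited pileup signal is not scaled between libraries, and the deposited −log10 q-value ranked peaks when equal numbers were taken. Bulk nuclear RNA and other organs were not used here. Alternatives changed the rule, the depth, the comparison cells and the filter on low counts.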

Additional observations from a re-analysis of the deposited data

Results flagged for a closer look

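The log2 ratio of tip-like cells over cells without markers changed direction between ages for 6 genes named by rule, out of 34 that met it. There is 1 library per age, and the difference between ages was not tested. Col13a1, a transmembrane collagen, spanned 3.86 log2 units, with ratios of -1.35 at E12.5, 2.50 at E16.5 and 0.70 at P8, at no more than 5.70 CPM. Without Esm1 in the rule its E16.5 ratio was -0.81, so the change of direction rests on that marker at that age. Ccl21a, a lymphatic chemokine, spanned 3.21, with 1.34, -1.87 and -0.34. Of its 3014 counts in tip-like cells at E12.5, 2817 came from the 34 cells with lymphatic genes, which Ccl21a helped to choose. The E12.5 ratio was -1.82 without Pgf in the rule and -3.87 with 7 genes of other cell types barred. Fam81a spanned 3.19, with -0.38, 1.82 and -1.37, and its E16.5 ratio was -0.16 without Esm1 in the rule. Nckap5 spanned 3.12, with 0.21, -2.03 and 1.09. Lsp1, a leukocyte cytoskeletal gene, spanned 2.94, with -0.41, -1.93 and 1.01. Hbb-bt, an adult beta-globin, spanned 2.87, with -1.67, 1.20 and 0.42, beside an erythroid sum of 10710.0 and 23103 CPM at E12.5 and 17908 and 8457 CPM at E16.5. Its E16.5 ratio was -0.97 at 2000 and -1.94 at 1000 counts per cell, so that the direction at E16.5 turned.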

How the results depend on the processing

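No paired analysis was possible because the values come from no test: the cells were chosen by their own expression, and each ratio is already taken within 1 library. In age order, tip-like shares were 20.9, 14.7 and 19.9%; 86 genes were higher and 132 lower in all 3 libraries; 227, 306 and 380 were higher and 563, 572 and 550 lower within libraries. Requiring at least 3 markers gave shares of 6.53, 1.10 and 2.52%, 49 higher and 47 lower genes, 194 higher and 318 lower at E16.5, and a Smad6 ratio of 0.041 at E16.5. Thinning to 2000 counts gave shares of 5.48, 4.37 and 7.60%, 23 higher and 26 lower genes, 121, 87 and 151 higher and 196, 195 and 327 lower within libraries, and an Hbb-bt ratio of -0.97 at E16.5. Thinning to 1000 counts gave 2.50, 1.78 and 2.79%, 1 higher and 7 lower, 24, 6 and 19 higher and 44, 35 and 46 lower within libraries, and an Hbb-bt ratio of -1.94 at E16.5. Fewer genes could be measured in all 3 libraries under these settings, 5915 with at least 3 markers, 3976 at 2000 counts and 489 at 1000 counts, against 10692. Every one of the 17 higher and 20 lower genes still measured at 2000 counts kept its direction in each library. At most 5% mitochondrial counts gave shares of 22.1% at E12.5 and 17.8% at P8. Also barring 7 genes of other cell types left 36 of 273, 72 of 568 and 7 of 57 endothelial cells as tip-like, shares of 13.2, 12.7 and 12.3%. It gave 0 higher and 7 lower genes among 775 measured, 56, 176 and 23 higher and 128, 297 and 53 lower within libraries, and a Ccl21a ratio of -3.87 at E12.5.

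Without Apln in the rule the shares were 7.68, 1.44 and 2.83%, with 27 higher and 26 lower genes among 6580 measured. The ratios were then 0.57 for Smad6 and 0.53 for Id2 at E16.5 and 0.50 for Unc5b at P8. Without Esm1 the E12.5 share was 13.5%, and the ratios were -0.14 at E16.5 and -2.74 at P8 for Plvap, and -0.81 for Col13a1 and -0.16 for Fam81a at E16.5. Without Angpt2 the shares were 14.4, 2.06 and 3.20%, with 41 higher and 48 lower genes among 7285 measured. Without Pgf the E12.5 share was 19.2% and the Ccl21a ratio at E12.5 was -1.82. Comparison cells with at most 1 marker gave 38 higher and 68 lower genes, 139, 169 and 207 higher within libraries, and 331 lower at E12.5 and 335 at P8. Without the E12.5 library 181 genes were higher and 253 lower. No filter beyond 1 count gave 710, 1159 and 957 higher and 1345, 1189 and 1208 lower within libraries and 226 lower in all 3. At least 30 counts expected gave 198 higher at E16.5, 76 lower in all 3, and 292, 303 and 340 lower within libraries. Cells without 5 cycling genes gave 374 lower at E12.5. Chosen after seeing the data, leaving out cells with 6 arterial and venous genes gave 47 lower in all 3, 351 lower at E16.5 and an Fbln5 ratio of 0.55 at E12.5; leaving out Plvap-rich cells and cells with lymphatic genes gave ratios of -0.998 at E16.5 and -1.85 at P8 for Plvap and -1.34 at E12.5 for Ccl21a, which chose the cells left out, so these turns follow from the choice; and leaving out the 6% highest scrublet scores moved no count beyond 1.5 times. Equal numbers of peaks gave Esm1 3, Apln 0 and Pgf 1 of 8 libraries, and a window of 5 kb gave Esm1 8. Except where an alternative's construction removes cells or genes, the cause was not tested. Depth enters the tip-like share, and genes below the low-count filter were not measured.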
